A study of Arabidopsis thaliana with 5 samples.

Results

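The genes described here are 9 genes of chlorophyll synthesis and GLK1, a transcription factor gene that drives them, measured in whole Arabidopsis thaliana seedlings of the mutant Atino80-5 and of wild type. They were chosen by name, as AGI loci, and each array accession was matched to its locus through RefSeq transcripts. All 10 were measured, with 19 probes, among 26649 genes and unnamed transcripts tested. The groups were 3 arrays of the Atino80-5 mutant and 2 arrays of wild type. All came from 12-day-old whole seedlings grown on MS medium at 22 °C, with 16 h of light at 100 µE and 8 h of darkness. INO80, for which the mutant is named, codes for the motor subunit of a remodeller that moves and exchanges nucleosomes. The sources used here state neither the accession background nor the kind of mutation, nor do they say whether each array held its own batch of plants. The p-values therefore cover no more than array-to-array spread, which may be technical.

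Chlorophyll is a tetrapyrrole made in the plastid from glutamate. Glutamyl-tRNA reductase commits the pathway, magnesium chelatase (subunits H, I and D, stimulated by GUN4) directs protoporphyrin IX away from heme, a cyclase closes the fifth ring, and the light-dependent protochlorophyllide oxidoreductases (POR) make chlorophyllide. Transcription factors of the GLK pair activate many of these genes together with those of the light-harvesting antenna, while separate enzymes remove chlorophyll from its proteins and break it down when leaves senesce.

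Before the comparison, INO80 (AT3G57300) was read on every array. Its brighter probe had scaled signals of 63.6, 54.4 and 59.9 in Atino80-5 and of 9604 and 9472 in wild type, and its other probe moved the opposite way, with 516, 478 and 467 in Atino80-5 and 134 and 126 in wild type. The scaled signal is the scanner's processed intensity after each array was multiplied to share its 75th percentile with the others. Atino80-5 array 3 was alone on a second slide, and the other 4 arrays shared the first. Within a genotype the arrays correlated at 0.9951 to 0.9963 across genes, which are no replicates, and at 0.9799 to 0.9817 between Atino80-5 and wild type. Leaf carbon fixation markers were well above background on all arrays for 10 of 10 genes and root markers for 16 of 17. The same held for 24914 of all 26649 genes tested, so these counts do not set the markers apart.

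Most of the chlorophyll synthesis genes were slightly lower in Atino80-5, and GLK1 was higher. Of the 10 genes, 5 fell (CHLH, CHLI1, PORA, PORB and PORC), 2 rose (GUN4 and GLK1) and 3 were not called (HEMA1, CHLD and CHL27). Calls were made at an adjusted p under 0.05 in limma, adjusted over all genes. Over all genes tested, 57.2% were called by this rule, 30.7% as higher and 26.4% as lower, so the number of calls among the 10 is near that of the transcriptome. Of all calls 53.8% were higher, a share of 42.9% when arrays were scaled by their median, and that scaling left 1 of the 10 genes higher and 7 lower. By the probe that stands for each gene, none of the 10 changed 2-fold, while 7.23% of all genes were both called and changed at least 2-fold. The median log2 change of the 10 was -0.12, beside 0.01 over all genes tested, and it was -0.05 both with quantile normalization and in the authors' value table. Atino80-5 and wild type arrays were fully separated for 9 of the 10 genes, as for 74.6% of all genes. The 5 decreases became 2 without Atino80-5 array 1 or 2, 4 without Atino80-5 array 3, and 3 and 2 without wild type array 1 and 2; the 2 increases became 1 without wild type array 1 or 2. In a whole seedling, fewer green cells and less RNA per cell cannot be told apart.

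**Figure D1:**
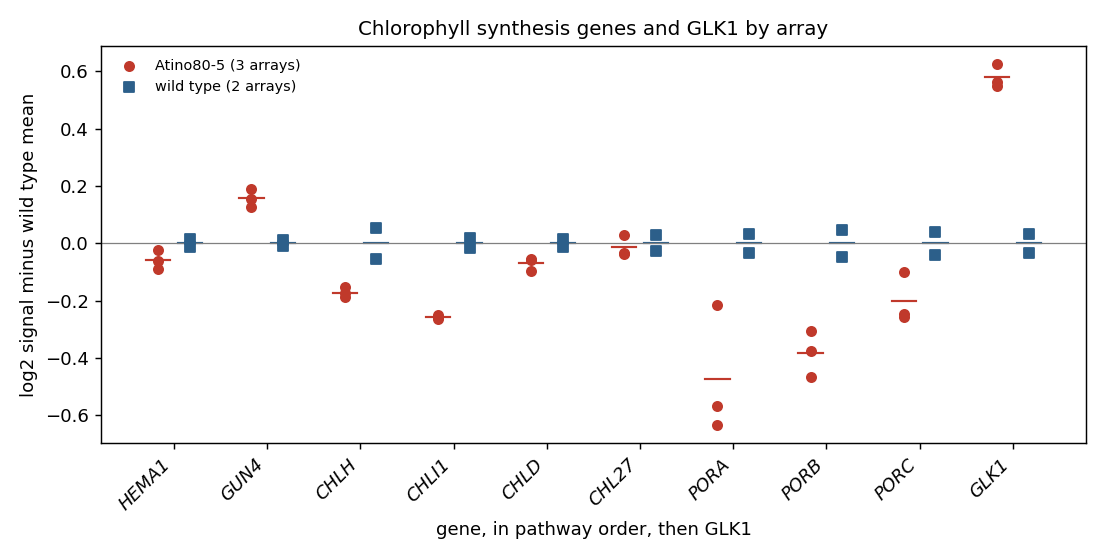
Log2 scaled signal of each gene on each array, minus the wild type mean of that gene, with 3 Atino80-5 arrays (circles) left of 2 wild type arrays (squares) and lines at the group means. The Atino80-5 arrays of GLK1 lie 0.55 to 0.63 above the wild type mean, those of PORB 0.31 to 0.47 below it, and those of CHL27 overlap wild type.

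The first gene of the pathway was not called. HEMA1 (AT1G58290), the main glutamyl-tRNA reductase gene of green tissue, had scaled signals of 42066, 42815 and 44050 in Atino80-5 and of 44284 and 45191 in wild type. The Atino80-5 arrays lay just below both wild type arrays. The log2 change was -0.06 ± 0.032 (SE, 3 and 2 arrays), with a 95% interval from -0.14 to 0.03 (adjusted p = 0.192, limma), and its sign turned with quantile normalization and in the authors' value table, while with each array scaled by its median HEMA1 was called lower (-0.12, adjusted p = 0.0327). HEMA2, a reductase gene also expressed in roots and other non-green tissue, had 6575, 6700 and 6499 in Atino80-5 and 6111 and 6066 in wild type, a log2 rise of 0.11 ± 0.027 (adjusted p = 0.0223), which was lost without Atino80-5 array 2 (adjusted p = 0.0679), wild type array 1 (0.0931) or wild type array 2 (0.112), and with median scaling (0.168).

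Of the 16 genes listed for the common steps from glutamate to protoporphyrin IX, HEMA2 among them, 4 rose, 6 fell and 6 were not called, with a median log2 change of -0.12. The 4 rises became 0 without Atino80-5 array 2 or wild type array 2 and 2 without any other array, and 5 of the 16 were called in all without wild type array 2. With median scaling 0 rose and 8 fell. The uroporphyrinogen decarboxylase genes HEME1 and HEME2 fell by 0.47 ± 0.027 and 0.30 ± 0.039 on the log2 scale (adjusted p = 0.000274 and 0.00308, limma). HEME1 had 29311, 29246 and 29924 in Atino80-5, against 40992 and 40476 in wild type. HEMF2, one of a pair of coproporphyrinogen oxidase genes, fell by 0.32 ± 0.029 (adjusted p = 0.00105). HEMA3, another reductase gene, had a weak signal throughout, 34.2, 35.0 and 44.2 in Atino80-5 and 125 and 134 in wild type, and was 3.44-fold lower (adjusted p = 0.000535); its log2 change of -1.78 shrank to -1.01 under normexp background correction.

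Magnesium chelatase is the enzyme that inserts magnesium into protoporphyrin IX. Of its subunit genes, CHLI1 and CHLH were called lower, and CHLD, also below wild type, was not called. A difference in response between these subunits was not shown. CHLI1 (AT4G18480), the main ATPase subunit I gene, had scaled signals of 100841, 101401 and 101797 in Atino80-5 and of 122652 and 119579 in wild type. The 3 mutant arrays lay within a narrow range, well below both wild type arrays. CHLI1 fell by 0.26 ± 0.027 on the log2 scale, to 1.19-fold less (adjusted p = 0.00153, limma), and a second probe of the gene fell by 0.18 ± 0.038. CHLI1 passed the threshold under the 15 alternatives that set no minimum fold change, with a log2 change of -0.17 under quantile normalization. It does not reach 2-fold.

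CHLH (AT5G13630), the subunit that binds the porphyrin and is also known as GUN5 for its part in plastid signalling, had 296330, 300746 and 293337 in Atino80-5 and 322148 and 347109 in wild type. The groups did not overlap, but the wild type arrays differed from each other by more than the lower of them did from the nearest mutant array. CHLH fell by 0.17 ± 0.042 on the log2 scale (adjusted p = 0.0230, limma). The call was lost without Atino80-5 array 1, 2 or 3 (0.0593, 0.0562 and 0.0640 in turn) and without wild type array 2 (0.0871). A block on replicate number also ended the call (0.0825), and quantile normalization gave a log2 change of -0.09. Since Atino80-5 array 3 is alone on its slide, blocking on the slide is the same fit as leaving it out.

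CHLD (AT1G08520), the subunit that links the ATPase to the catalytic one, had 56296, 54812 and 56483 in Atino80-5 and 59199 and 58041 in wild type. All mutant values were below the wild type values, by little. The log2 change of -0.07 ± 0.029 was not called (95% interval -0.15 to 0.01, adjusted p = 0.103, limma), and a second probe gave -0.06; with each array scaled by its median CHLD passed the threshold (-0.13, adjusted p = 0.0153). GUN4 (AT3G59400), which binds porphyrins and stimulates the chelatase, went the other way, with 43806, 44948 and 43006 in Atino80-5 and 39094 and 39666 in wild type. Every mutant array was above both wild type arrays. GUN4 rose by 0.16 ± 0.031 on the log2 scale (adjusted p = 0.0124), a call lost without wild type array 1 or 2 (0.0762 and 0.0564 in turn), with median scaling (0.0616) and with normexp background correction (0.0524).

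CHL27 (AT3G56940), the membrane subunit of the cyclase that forms the fifth ring, was level. Its scaled signals were 243528, 232911 and 232485 in Atino80-5 and 234023 and 243417 in wild type. The values of the genotypes overlapped, and the log2 change was -0.01 ± 0.037, with a 95% interval from -0.11 to 0.08 (adjusted p = 0.760, limma); its sign turned with quantile normalization, in the authors' value table and without wild type array 2. LCAA (AT5G58250), a second protein of the same cyclase, fell by 0.35 ± 0.030 on the log2 scale (adjusted p = 0.000857). LCAA had 29026, 28220 and 27848 in Atino80-5, below the 36096 and 36321 of wild type.

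Of the 7 other genes listed for the chlorophyll branch, 1 rose, 3 fell and 3 were not called, with a median log2 change of -0.05; without wild type array 1 or 2 2 were called in place of 4, and without Atino80-5 array 1 there were 2 rises. The sign of this median turned with quantile normalization (0.04) and in the authors' value table (0.05). The gene that rose was DVR, which encodes the divinyl reductase, by 0.18 ± 0.027 (adjusted p = 0.00548, limma). The falls besides LCAA were those of CHLI2, the minor copy of subunit I, by 0.13 ± 0.028 (adjusted p = 0.0153), and CHLP, for the geranylgeranyl reductase that makes the phytol tail, by 0.12 ± 0.035 (adjusted p = 0.0392). CHLI2 lost its call without wild type array 1 or 2 (at 0.0928 and 0.0569). CHLP lost it when any single one of the 5 arrays was left out, at an adjusted p of 0.0522 to 0.181.

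The POR genes, whose enzymes reduce protochlorophyllide in the light, were all lower in Atino80-5. PORA is best known from etiolated seedlings, where it is abundant in the dark and declines in light, while PORB and PORC act in green tissue. PORB (AT4G27440) had scaled signals of 118249, 105774 and 112793 in Atino80-5 and of 141564 and 151214 in wild type. The groups did not overlap. PORB fell by 0.38 ± 0.061 on the log2 scale, a 23.3% lower signal (adjusted p = 0.00624, limma). A block on replicate number ended this call (adjusted p = 0.0552). Its 5 probes, assigned to 2 transcript records, gave log2 changes from -0.25 to -0.50, and each was called over probes.

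PORC (AT1G03630), the light-induced member, had 60037, 59679 and 66452 in Atino80-5 and 73297 and 69347 in wild type. Atino80-5 array 3, from the second slide, was the closest to wild type. PORC fell by 0.20 ± 0.063 on the log2 scale (adjusted p = 0.0474, limma), and its second probe by 0.17 ± 0.034 (adjusted p over probes = 0.0126). This call did not survive leaving out Atino80-5 array 1 or 2 (0.114 and 0.120) or wild type array 1 or 2 (0.205 and 0.0957). It was also lost with quantile normalization (log2 change -0.12, adjusted p = 0.226), in the authors' value table (0.219) and when dim probes were not filtered out (0.0875). Within the first slide the call was kept (-0.25, adjusted p = 0.0148).

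PORA (AT5G54190) was dim and its 3 probes differed in size of change. The probe with the highest mean had scaled signals of 390, 408 and 521 in Atino80-5 and of 591 and 619 in wild type. Again Atino80-5 array 3 stood closest to wild type. By this probe PORA fell by 0.47 ± 0.14 on the log2 scale, to 1.39-fold less (adjusted p = 0.0416, limma). Keeping all dim probes in the fit ended this call (adjusted p = 0.0790). The call was lost without Atino80-5 array 1 or 2 (0.0911 and 0.110) or wild type array 1 or 2 (0.125 and 0.162), and within the first slide it was kept (log2 change -0.60, adjusted p = 0.00246).

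A second PORA probe, A_84_P11230, had 325, 321 and 317 in Atino80-5 and 715 and 767 in wild type. Here the 3 mutant arrays lay together, array 3 included. PORA was 2.31-fold lower by this probe (log2 change -1.21 ± 0.041, adjusted p over probes = 6.9e-05, limma). The third probe, A_84_P834298, had 18.9, 15.9 and 14.2 in Atino80-5, with 2 of 3 arrays well above background, and 35.5 and 47.2 in wild type, and was 2.52-fold lower (adjusted p over probes = 0.00322). The mean of the probes gave a log2 change of -1.01 for PORA (adjusted p = 0.000435). Probe sequences were not used here, so which PORA probe follows the transcript is not known, and signal shared among the POR paralogs, or between CHLI1 and CHLI2, was not tested.

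**Figure D2:**
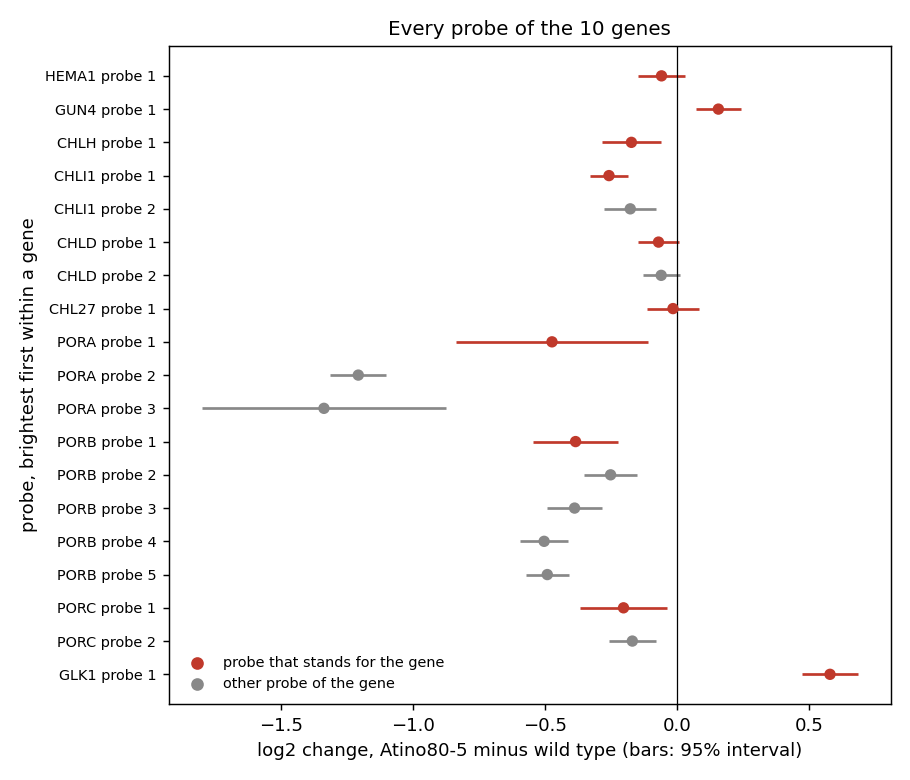
Log2 change (Atino80-5 minus wild type) of each of the 19 probes with its 95% interval; red marks the probe that stands for the gene in the counts, grey the other probes. The probes of PORB lie between -0.25 and -0.50, those of PORA between -0.47 and -1.34, and GLK1 alone lies above 0.5.

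Over the 19 probes, 13 were lower, 2 higher and 4 not called, while 55.5% of all 35204 probes were called in either direction. The 13 lower probes belong to the 5 genes that fell, with 5 of them from PORB and 3 from PORA. Probes of the same gene are not separate support. No gene of the 10 with several probes had probes of opposite sign.

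GLK1 (AT2G20570), the activator of chlorophyll and antenna genes, had the smallest adjusted p of the 10. Its scaled signals were 4821, 4572 and 4619 in Atino80-5 and 3195 and 3054 in wild type. All mutant arrays lay above both wild type arrays by far more than the arrays of a genotype differed. GLK1 rose by 0.58 ± 0.039 on the log2 scale, or 1.49-fold (adjusted p = 0.000432, limma), a larger change than that of 82.0% of all genes. Over the 15 alternatives with no minimum fold change, the log2 change lay between 0.52 and 0.61 and the call was kept in each. The gene has a single probe on the array.

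GLK2, which overlaps GLK1 in function, rose as well. Its scaled signals were 39940, 39853 and 40229 in Atino80-5 and 29279 and 29053 in wild type, so the arrays of each genotype nearly coincided. The log2 rise of GLK2 was 0.46 ± 0.024, or 1.37-fold (adjusted p = 0.000224, limma). The 5-array profile closest to GLK1, by Euclidean distance of centred log2 values among genes with a symbol, was that of CYP705A21 at 0.0310, followed by REV7 at 0.0338 and WAKL6 at 0.0456. Within a looser distance of 0.2 lay 1365 of 26648 genes, so a similar profile was common at that distance. How many of all genes lay as close as those named was not counted.

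Of the 14 other regulators listed, GLK2 among them, 4 rose, 7 fell and 3 were not called, and their median log2 change was -0.09. The rises besides GLK2 were those of RVE1, a clock-related MYB factor, by 0.90 ± 0.055 (adjusted p = 0.000333, limma), GNC, a GATA factor that promotes greening, by 0.30 ± 0.040 (adjusted p = 0.00338), and HY5, the bZIP factor of light signalling, by 0.22 ± 0.032 (adjusted p = 0.00458). CGA1, the close relative of GNC, fell by 0.58 ± 0.053 (adjusted p = 0.00106), so the members of this GATA pair changed in opposite directions. CGA1 had 1051, 942 and 997 in Atino80-5 and 1488 and 1490 in wild type. PIF4, a phytochrome-interacting growth regulator, fell by 0.70 ± 0.036 (adjusted p = 0.000198), with 17777, 16826 and 16964 in Atino80-5 and 28170 and 27764 in wild type. FHY3 and FAR1, which activate HEMB1, fell by 0.34 ± 0.037 and 0.29 ± 0.047 (adjusted p = 0.00185 and 0.00622), and HEMB1, for aminolevulinate dehydratase, fell by 0.18 ± 0.027 (adjusted p = 0.00486). GNC, HY5, FHY3, FAR1 and HEMB1 are named here after their values were seen, and a link between the changes of FHY3 or FAR1 and that of HEMB1 was not tested.

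Most genes of chlorophyll breakdown fell, the steepest by more than 2-fold. Of 11 listed, 8 fell, 0 rose and 3 were not called in limma, while 26.4% of all genes tested were lower and 30.7% higher. The list was chosen with earlier results of these data known. At an unadjusted p under 0.05, 0 of its genes were higher, and their median log2 change was -0.34. NYC1, a chlorophyll b reductase that starts breakdown of the antenna pigment, had 24346, 23706 and 23658 in Atino80-5 and 65743 and 66469 in wild type. The mutant arrays agree within a few per cent and lie far below wild type, and NYC1 was 2.77-fold lower (log2 change -1.47 ± 0.028, adjusted p = 2.6e-05). SGR2, a relative of the magnesium dechelatase SGR1, had 443, 450 and 434 in Atino80-5 and 1024 and 993 in wild type, 2.28-fold less (adjusted p = 4.6e-05). CLH2, a chlorophyllase, fell by 0.88 ± 0.034 (adjusted p = 9.9e-05), and PAO, the oxygenase that opens the ring of pheophorbide, by 0.59 ± 0.031 (adjusted p = 0.000207). SGR1 itself, which the naming rule did not pick, fell by 0.34 ± 0.035 (adjusted p = 0.00154). The second probes of NYC1 and SGR2 gave log2 changes of -1.44 and -1.14. The list's summed scaled signal was 146945 to 148155 in Atino80-5 and 216084 to 218433 in wild type, a sum in which NYC1 weighs heavily as a bright gene.

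**Figure D3:**
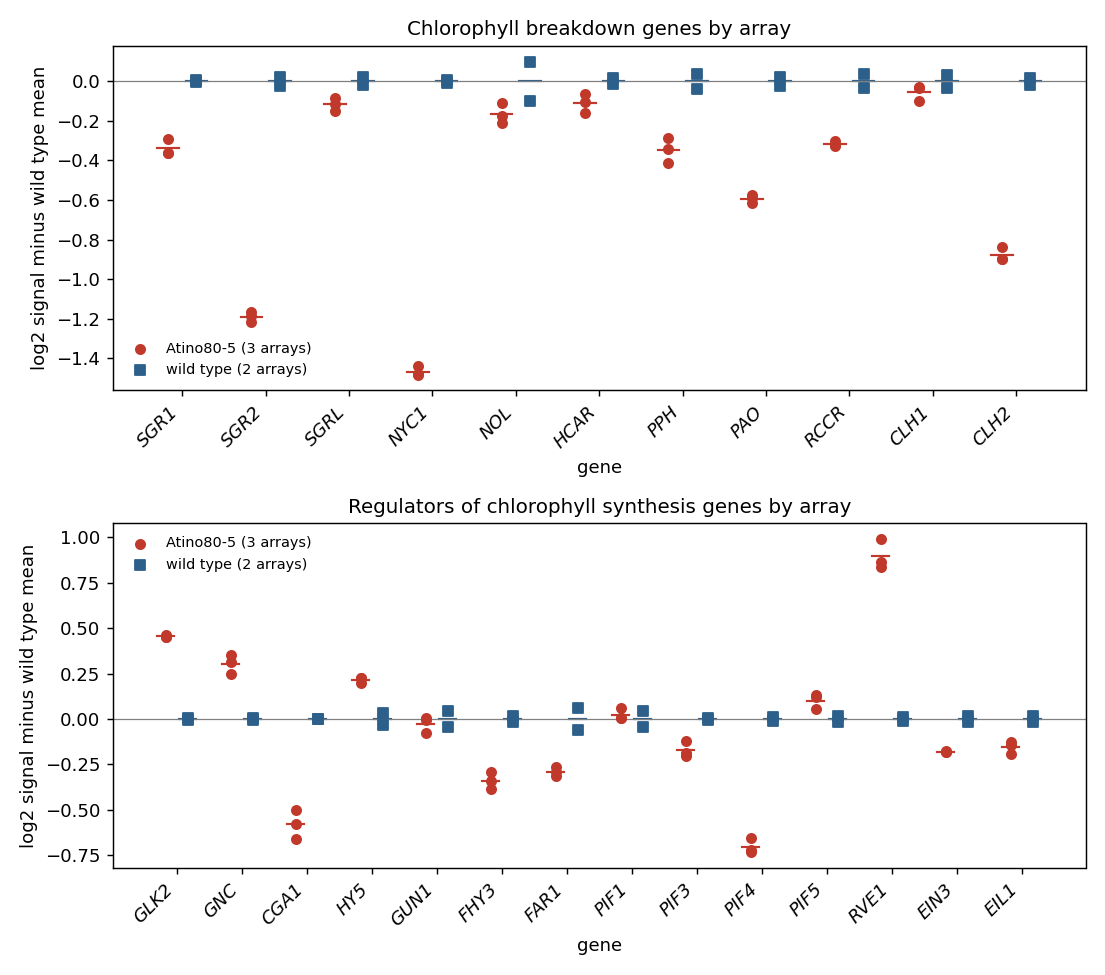
Log2 scaled signal of chlorophyll breakdown genes (top) and of regulators of chlorophyll synthesis genes (bottom) on each array, minus the wild type mean, with 3 Atino80-5 arrays left of 2 wild type arrays and lines at the means. NYC1 and SGR2 lie lowest at means of -1.47 and -1.19, while among the regulators RVE1 lies at 0.90 and PIF4 at -0.70.

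Antenna proteins bind most of the chlorophyll. Of 18 antenna genes, 2 rose, 5 fell and 11 were not called, with a median log2 change of -0.08; the number called was 4 without Atino80-5 array 2, and 2 and 3 without wild type array 1 and 2. With quantile normalization and in the authors' value table this median was 0.01, with 3 genes higher and 2 lower. Median scaling gave -0.14, with 2 higher and 10 lower, and the mean of a gene's probes gave -0.12, with 1 higher and 10 lower. The extremes were LHCB4.3, which rose by 1.16 ± 0.027 (adjusted p = 3.6e-05, limma), and LHCA2, which fell by 0.37 ± 0.044 (adjusted p = 0.00228). LHCB1.4 fell by 0.24 ± 0.049 (adjusted p = 0.0133), a call lost without wild type array 1 or 2 (0.0741 and 0.0626), and its log2 change ran from -0.11 in the authors' value table to -0.45 as the mean of its probes. LHCB2.1 rose by 0.18 ± 0.034 (adjusted p = 0.0112) by a probe whose partner gave -0.15, and this call too was lost without wild type array 1 or 2 (0.0538 and 0.0687). The LHCB1 and LHCB2 genes have near-identical copies, and signal shared among them was not tested.

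Most root markers were higher in Atino80-5, while most leaf carbon fixation markers were not called. Of 17 root markers, 14 were higher, 2 lower (WOX5 and SCR) and 1 not called, with a median log2 change of 0.79. Over all genes tested, 30.7% were higher and 26.4% lower, and the marker lists were chosen with earlier results of these data known. The summed scaled signal of the root markers was 17357 to 17381 in Atino80-5 and 14208 to 14655 in wild type. Such sums lean on bright genes, here among them SCR, which fell by 0.12, and CASP1, which rose by 0.97 on the log2 scale. The root hair genes EXPA18 and PRP3 rose by 1.25 and 1.08 and the root meristem gene PLT2 by 1.09 on the log2 scale, while WOX5, of the quiescent centre, was 2.82-fold lower. Normexp background correction lowered the rise of PLT2 to 0.49 and the median of the list to 0.51. The 2 falls became 1 without Atino80-5 array 2 or 3 or wild type array 1 or 2. Of 10 leaf carbon fixation markers, 0 rose, 2 fell (CFBP1 and GAPA, by 0.17 and 0.19) and 8 were not called in limma, GAPB (-0.16) and PRK (-0.18) among them; 0 were higher at an unadjusted p under 0.05. Without wild type array 1 and 2 the calls on these leaf genes were 1 and 0. Their median log2 change was -0.13, and it was -0.02 both with quantile normalization and in the authors' value table. Their summed scaled signal was 3901280 to 4076180 in Atino80-5 and 4090590 to 4314030 in wild type. The part of tissue proportions in the changes of the chlorophyll genes was not tested.

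**Figure D4:**
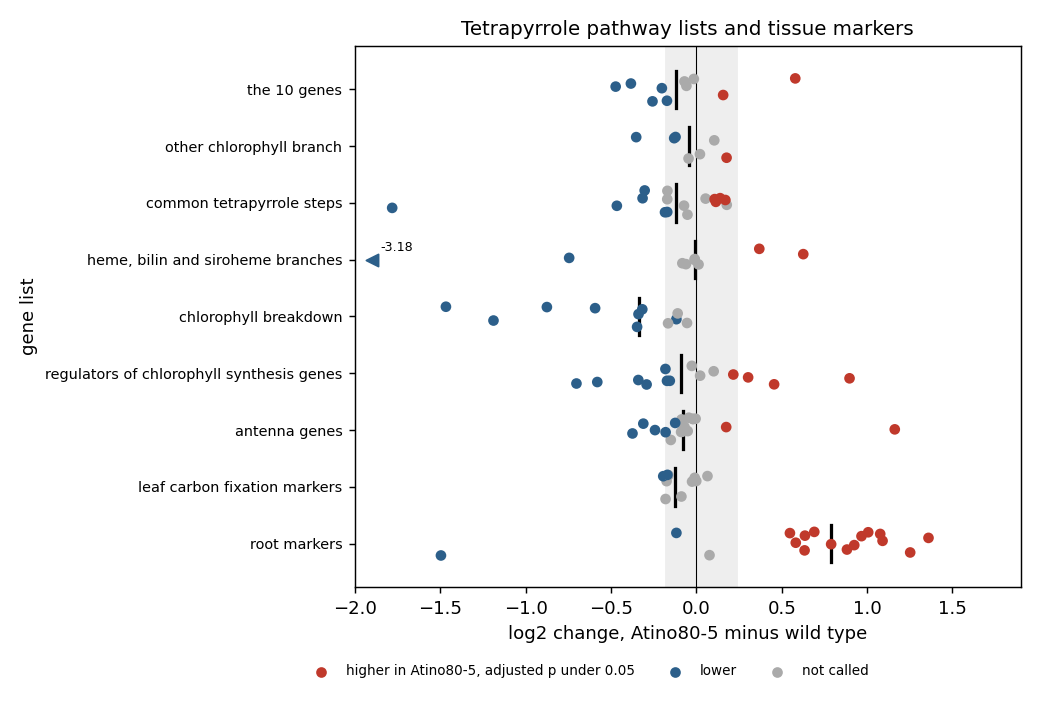
Log2 change (Atino80-5 minus wild type) of every measured gene of each list, red if called higher, blue if called lower and grey if not called; black bars are list medians, the shaded band holds the middle of all genes (log2 change -0.18 to 0.24), and the arrow stands for HO3 at -3.18. The medians run from -0.34 for chlorophyll breakdown to 0.79 for root markers, with the 10 genes at -0.12.

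Differences between genes were also read within each array, where the scaling between arrays cancels. For each of 11 pairs, the log2 signal of one gene minus that of the other was compared between genotypes by an exact two-sided permutation test over the 5 arrays, which cannot give less than p = 0.2 with 3 against 2. GUN4 minus CHLH was 0.33, 0.34 and 0.32 in Atino80-5 relative to its wild type mean, and 0.04 and -0.04 in wild type, a difference of 0.33 (exact p = 0.2, adjusted over the pairs 0.314). GLK1 minus HEMA1 was higher by 0.64 in Atino80-5, and GLK1 minus GLK2 by 0.12. CHLI1 minus CHLD was lower by 0.19, CHLI1 minus CHLI2 by 0.13 and HEMA1 minus HEMA2 by 0.17. PORA minus PORC was lower by 0.27. For these 7 pairs the genotypes did not overlap, and the exact p was the smallest possible, 0.2, so this test could not show a difference for them either. How often other pairs of genes do not overlap was not computed. For PORA minus PORB (-0.09, exact p = 0.8), PORB minus PORC (-0.18, exact p = 0.4), CHLH minus CHLI1 (0.08, exact p = 0.4) and CHLH minus CHLD (-0.10, exact p = 0.4) Atino80-5 and wild type arrays overlapped, so a difference in response between these genes was not shown. The PORA pairs rest on its probe with the highest mean; as means of their probes PORA and PORB had log2 changes of -1.01 and -0.40, a gap that was not tested. PORA minus PORB turned to 0.03 without Atino80-5 array 1.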

How the data were processed

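RNA of 12-day-old whole seedlings was labelled with Cy3 and hybridised to 1-colour Agilent arrays, 3 of Atino80-5 and 2 of wild type. The deposited scanner files give an intensity per spot, the processed signal of Agilent Feature Extraction 10.7.3.1, per the file headers; the submitters' processing notes give version 9.1. The authors' deposited value table holds log2 values, scaled between arrays by a method not given in the sources used here. It correlates at 0.9994 or more with the log2 intensities and served as an alternative. Its arrays share a 75th percentile of 12.1505. It gave 7759 higher and 7527 lower genes, beside 7757 and 7528 with quantile normalization, so these alternatives are not separate checks.

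Control spots (1417) and outlier spots (7 to 14 an array) were left out, log2 intensities were scaled by the 75th percentile of each array, and 35204 of 43603 probes well above background on at least 2 arrays were kept. No spot was saturated. Of the probes, 34285 matched a locus in RefSeq (TAIR10.1, names only) and 9318 did not. The probe with the highest mean stood for a gene. Genotypes were compared with limma 3.58.1 (R 4.3.3, lmFit and eBayes), adjusted by Benjamini and Hochberg over genes. The number of arrays limits the precision. The fit was also run on simulated data, but no outcome is given here, so that run is no check of the calls.

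The genes, the 8 other lists and the naming rule (the 10 genes, INO80, paralogs, up to 4 genes of each list by smallest p, and the profiles closest to GLK1) were chosen with earlier results of these data known. The normexp alternative used the median spot signal, since the files analysed here list no mean signal. Promoter motifs were not analysed here. Alternatives covered background, scaling, filter, probe choice, variance model, slide, replicate number, the authors' table, each array left out in turn and a minimum change of 2-fold. Where an alternative changed the values themselves or the filter, the probe that stands for a gene was chosen anew.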

Additional observations from a re-analysis of the deposited data

How the results depend on the processing

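Leaving out one array gave 6310 to 7897 higher and 4877 to 6627 lower genes in all, 1 to 2 higher and 2 to 4 lower among the 9 chlorophyll genes and GLK1, and, called in the lists, 2 to 4 of the other chlorophyll branch, 5 to 8 of the common steps, 3 to 4 of the heme, bilin and siroheme branches, 7 to 8 of breakdown, 9 to 12 regulators, 2 to 6 antenna, 0 to 3 leaf and 15 to 16 root genes. Under the 15 alternatives that set no minimum fold change, GLK1 and CHLI1 kept both direction and call. The list medians of the antenna genes and of the other chlorophyll branch turned to 0.01 and 0.04 with quantile normalization. HEMA1 turned to 0.0023 with quantile normalization and 0.0015 in the authors' value table. CHL27 turned to 0.058 and 0.062 there and ran from -0.043 to 0.014 when one array was left out. PORA minus PORB likewise ran from -0.21 to 0.030, positive without Atino80-5 array 1. The causes were not tested.

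With median scaling, 1 of the 10 genes was higher and 7 were lower, 12 antenna and 4 leaf genes were called, and 6804 genes in all were higher and 9043 lower, so that 42.9% of calls were higher against 53.8%. Normexp background correction gave 1 higher gene of the 10 and 4 leaf calls. Quantile normalization and the authors' value table each left 2 calls in the other chlorophyll branch. Without a filter on dim probes 3 of the 10 were lower and 4 antenna genes called. The mean of a gene's probes called 11 antenna and 5 leaf genes, and the trended and robust fit 4 leaf genes. A 2-fold minimum left 1229 higher and 698 lower genes, 0 of the 10 either way, 0 of the other chlorophyll branch, 1 common step, 1 of the heme, bilin and siroheme branches, 2 breakdown genes, 0 regulators, 1 antenna, 0 leaf and 6 root genes.

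No pairing of the arrays by replicate number was visible: deviations from the group means of same-numbered arrays correlated at 0.0376 and 0.00509. The 2 wild type arrays deviate from their mean in mirror image, so these are not separate checks. Whether same-numbered plants were grown or harvested together is not known. With the replicate number as a block, 1 of the 10 genes was higher and 3 lower, as GUN4, CHLH and PORB lost their calls. Under that block 2, 4, 2 and 0 genes were called in the other chlorophyll branch, common steps, antenna and leaf lists. The dimmest genes limit the readings, with HEMA3, HO3, HO4, PLT1 and the third PORA probe close to background.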

Other observations

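Of 9 genes of heme, bilin and siroheme metabolism, 2 rose, 2 fell and 5 were not called, with a median log2 change of -0.01; the rises became 1 without Atino80-5 array 2 or 3 or wild type array 1. FC1, the ferrochelatase gene expressed in roots and leaves alike, rose by 0.63 ± 0.048 (adjusted p = 0.00060, limma), with scaled signals of 3324, 3131 and 3048 in Atino80-5 and of 2016 and 2085 in wild type; FC2, the gene for the ferrochelatase of green tissue and named after its value was seen, had a log2 change of -0.01 (adjusted p = 0.804). UPM1, for the methyltransferase that opens the siroheme branch, fell by 0.75 ± 0.043 (adjusted p = 0.000282), with 15601, 14713 and 14490 in Atino80-5 and 24677 and 25374 in wild type. The heme oxygenase gene HO3 had 18.5, 28.5 and 24.9 in Atino80-5, with 1 of 3 arrays well above background, and 215 and 212 in wild type, a log2 change of -3.18 (adjusted p = 0.000326) that was -1.57 with normexp background correction. HO4 had 30.1, 35.3 and 32.0 in Atino80-5 and 23.2 and 27.2 in wild type; its rise of 0.37 (adjusted p = 0.0328) was lost in 10 of 15 alternatives, among them those without Atino80-5 array 2 or 3 or wild type array 1 (adjusted p = 0.0719, 0.0727 and 0.140), and normexp background correction gave 0.07 (adjusted p = 0.190).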
